A study of Mus musculus with 17 samples.

Results

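The stromal fibroblast genes described here are 10 genes of the choroid plexus, chosen by symbol: Dcn, Lum, Fbln1, Mgp, Fn1, Comp, Dpt, Pdgfra, Dpep1 and Slc6a13. They are 10 of the 55487 genes in the count table, and 9 of them passed the filter on low counts, as did 16851 genes in all. Dpt did not pass and is given by its counts only. RNA was measured in the choroid plexus dissected whole from the lateral ventricles of C57BL/6 mice, in 17 libraries. CTRL is the control group (n = 5), T1 is the group after 1 day of DSS (n = 4) and T3 the group after 3 days (n = 4). Mice of T5 had DSS for 3 days and plain water for the following 2 days (n = 4). DSS, dextran sodium sulfate, is a polymer that injures the lining of the colon and is given to mice as a model of colitis. All groups share the strain and no genetic change is named, and whether each library is an animal of its own is not stated in the labels. A p-value here thus sets a difference between groups against the scatter among these libraries, some of which may be technical.

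The choroid plexus is a fold of vascular tissue in the brain ventricles, with an epithelium that makes cerebrospinal fluid around a core of blood vessels, macrophages and fibroblasts. Its stromal fibroblasts lay down the collagens, proteoglycans and elastic fibre proteins of that core, and the core joins the connective tissue of the meninges where the plexus attaches to the brain. Several of the 10 genes are shared by both tissues: Slc6a13, for example, also marks meningeal fibroblasts, and Pdgfra also marks oligodendrocyte precursors, the cells that give rise to myelinating glia.

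Of the 10 genes, 6 differed by 1.70 to 5.33 times between their highest and lowest library (Dcn, Lum, Fbln1, Mgp, Pdgfra and Dpep1). Another 3 differed by 67.9 to 860.5 times (Comp, Slc6a13 and Fn1), and Dpt was close to the limit of detection. No member passed the adjusted threshold of 0.05 in any of the 5 comparisons made with edgeR's quasi-likelihood test. The highest values of Fn1, Slc6a13, Comp and Fbln1 were all in T3 replicate 4, and the next highest of each of these were all in T5 replicate 1. T3 replicate 4 carries the library title number 32 in the series, and members' results that rest on T3 are therefore given with and without it.

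RefSeq promoters (GRCm38.p6), each a window of 300 bases that ends 50 bases past a start site, were found for Pdgfra, Dpep1, Slc6a13, Fbln1 and Dpt. Those of 3 members are shown because these genes differed in the libraries that stood apart: Slc6a13 and Fbln1 had their highest value in T3 replicate 4, and Dpep1 had its lowest there. The windows are chr6:121300038-121300337 for the first of the 3 Slc6a13 starts, chr15:85205699-85205998 for the first of the 2 Fbln1 starts and chr8:123185985-123186284 for Dpep1, all on the + strand. Capitals mark matches to the letters searched, on either strand.
Slc6a13: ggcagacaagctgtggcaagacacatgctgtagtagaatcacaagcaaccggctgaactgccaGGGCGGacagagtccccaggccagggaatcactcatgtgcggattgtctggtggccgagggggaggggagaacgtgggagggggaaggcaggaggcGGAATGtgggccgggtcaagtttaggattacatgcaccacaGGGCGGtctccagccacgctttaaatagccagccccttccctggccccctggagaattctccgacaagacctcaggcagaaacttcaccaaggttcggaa
Fbln1: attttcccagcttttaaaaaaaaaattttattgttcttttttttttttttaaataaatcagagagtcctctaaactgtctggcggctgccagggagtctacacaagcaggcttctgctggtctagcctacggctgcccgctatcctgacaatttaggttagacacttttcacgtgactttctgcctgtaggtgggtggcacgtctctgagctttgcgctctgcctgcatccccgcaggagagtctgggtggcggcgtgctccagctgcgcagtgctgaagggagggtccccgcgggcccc
Dpep1: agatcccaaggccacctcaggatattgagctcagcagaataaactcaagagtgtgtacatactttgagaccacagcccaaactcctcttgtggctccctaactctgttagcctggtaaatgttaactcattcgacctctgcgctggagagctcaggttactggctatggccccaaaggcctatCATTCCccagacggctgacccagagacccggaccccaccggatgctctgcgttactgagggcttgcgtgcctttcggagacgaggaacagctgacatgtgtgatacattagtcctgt
The search was for 7 short motifs. The TATA box was spelled TATAAA and the CCAAT box by its own letters. The GC box was spelled GGGCGG and the TEAD site GGAATG. The cyclic AMP response element was spelled TGACGTCA, the AP-1 site TGANTCA, where N is any base, and the forkhead site GTAAACA. No match shown overlaps another. The Slc6a13 window held the GC box letters at 2 places, starting 187 and 50 bases before the start site, and the TEAD letters 91 bases before it. The Dpep1 window held the TEAD letters on the opposite strand, 67 bases before the start site, and the Fbln1 window held none of the 7. The windows of the other starts, not printed, held other matches: the second Fbln1 start held the GC box letters at 2 places, starting 11 bases before and 11 bases after it, and the other 2 Slc6a13 starts held the CCAAT letters once each and no GC box. Among 32851 RefSeq promoters of the same length, 35.7% held the GC box letters and 14.7% held the TEAD letters. A match describes the letters only.

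Library totals ran from 8875921 to 26839417 reads, with a median of 18004090. Levels are CPM, reads of a gene per 1000000 reads of its library, scaled by edgeR's TMM factors. The libraries also differed in RNA of other cell types: summed markers of oligodendrocytes ran from 99.6 to 16789 CPM, and Ttr, the main secreted protein of the plexus epithelium, ran from 54516 to 148902 CPM. In bulk tissue, fewer cells of a type and less RNA per cell cannot be told apart, and this holds for every level given here.

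Per kilobase of exon, the 10 genes stood in this order in CTRL libraries. Mgp averaged 132 ± 36.5 CPM per kb, Lum 29.4 ± 8.15, Dcn 22.2 ± 7.64, Fbln1 15.5 ± 4.64, Dpep1 9.18 ± 3.75, Pdgfra 5.64 ± 0.66, Slc6a13 2.94 ± 2.06, Fn1 0.326 ± 0.26, Comp 0.115 ± 0.0524 and Dpt 0.0629 ± 0.0568 CPM per kb (SD, n = 5). The ranges of neighbours in this order overlapped, except those of Mgp and Lum and those of Pdgfra and Slc6a13. The matrix genes Mgp, Lum and Dcn thus stood above the transporter gene Slc6a13 and the fibronectin gene Fn1 in untreated tissue.

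**Figure D1:**
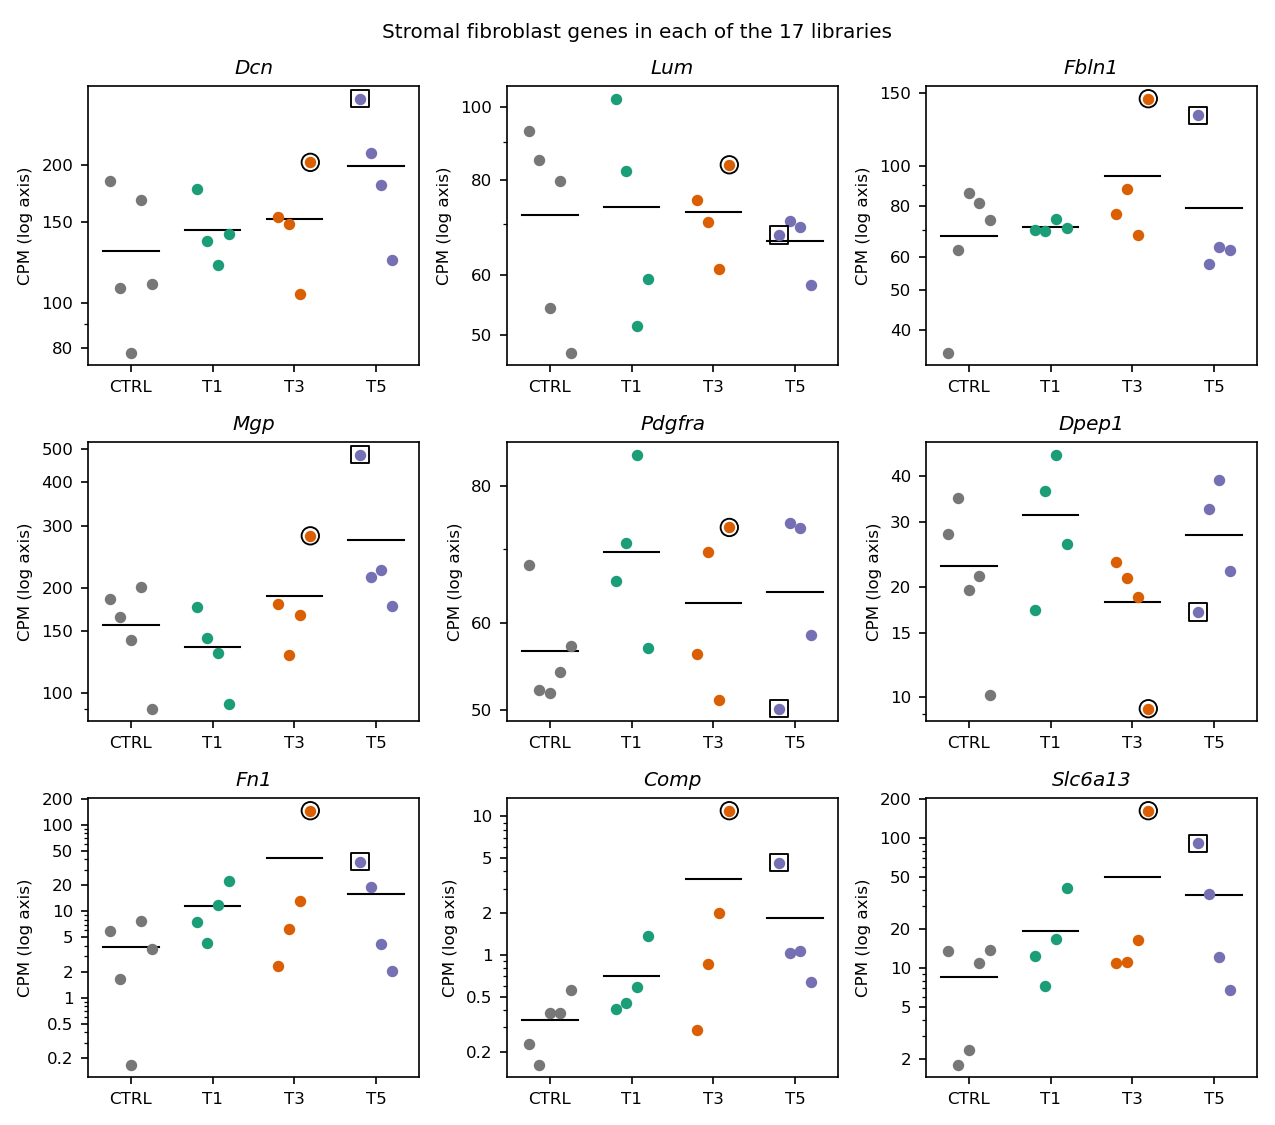
CPM on a log axis for the 9 tested members in each library of CTRL, T1, T3 and T5. Points are libraries, horizontal lines are group means, the ringed point is T3 replicate 4 and the boxed point is T5 replicate 1. Fn1, Comp, Slc6a13 and Fbln1 are highest in the ringed library, and Dpep1 is lowest there at 9.31 CPM.

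Dcn encodes decorin, a small leucine-rich proteoglycan that binds collagen fibrils and growth factors of the TGF-beta family. It lies at chr10:97479609-97518143 on the + strand (GRCm38, GENCODE M21, protein coding). Dcn had 184, 108, 78.0, 168 and 110.0 CPM in CTRL replicates 1 to 5, 177, 137, 121 and 141 CPM in T1 replicates 1 to 4, 154, 149, 105 and 203 CPM in T3, and 279, 212, 181 and 124 CPM in T5. T5 replicate 1 was the highest of the 17 libraries, and each DSS group overlapped CTRL. Means were 129.6 ± 44.6 in CTRL, 144 ± 23.8 in T1, 153 ± 40.1 in T3 and 199 ± 64.5 CPM in T5 (SD, n = 5, 4, 4 and 4). Without T3 replicate 4 the T3 mean was 136 ± 27.2 CPM (n = 3). The fitted log2 fold change of T5 over CTRL was 0.62 ± 0.26 (SE), with an unadjusted p of 0.0279 and an adjusted p of 0.608 in edgeR's test. It was 0.61 ± 0.25 without T3 replicate 4 and 0.41 ± 0.26 without T5 replicate 1.

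Lum encodes lumican, a second proteoglycan of the same family that spaces collagen fibrils. It lies beside Dcn at chr10:97565128-97572703, on the + strand. Lum had 93.0, 85.0, 54.3, 79.8 and 47.3 CPM in CTRL replicates 1 to 5, 103, 82.3, 51.3 and 59.2 CPM in T1, 75.4, 70.5, 61.1 and 83.9 CPM in T3, and 67.7, 70.7, 69.4 and 58.2 CPM in T5. All 3 DSS groups overlapped CTRL, and the T5 libraries were the closest together. The highest library held 2.17 times the CPM of the lowest, against 3.57 times for Dcn. Fitted changes over CTRL were 0.04 ± 0.21 for T1, 0.02 ± 0.21 for T3 and -0.11 ± 0.21 for T5 on the log2 scale (SE). Without T3 replicate 4 the T3 value was -0.07 ± 0.23. As a share of Dcn CPM in the same library, Lum had a median of 50.4% among CTRL libraries (range 43.0 to 78.7%) and 50.1% among T1 libraries (41.9 to 60.2%). The median was 48.1% among T3 libraries (41.4 to 58.4%) and 35.8% among T5 libraries (24.3 to 46.9%).

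Fbln1 encodes fibulin 1, a glycoprotein of basement membranes and elastic fibres that binds fibronectin. It lies at chr15:85205949-85286535 on the + strand. Fbln1 had 35.2, 62.3, 86.1, 81.0 and 73.7 CPM in CTRL replicates 1 to 5, 69.8, 69.3, 74.2 and 70.5 CPM in T1, 76.4, 87.7, 67.8 and 146 CPM in T3, and 133, 57.6, 63.6 and 62.6 CPM in T5. T3 replicate 4 and T5 replicate 1 were the highest, the other 15 libraries did not exceed 87.7 CPM, and every DSS group overlapped CTRL. The fitted change of T3 over CTRL was 0.48 ± 0.28 with all libraries and 0.19 ± 0.27 without T3 replicate 4. For T5 over CTRL it was 0.23 ± 0.28, and -0.14 ± 0.25 without T5 replicate 1 (log2, SE).

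Mgp encodes matrix Gla protein, an inhibitor of calcification in vessels and cartilage. It lies at chr6:136872435-136875823 on the - strand. Mgp had 186, 165, 141, 201 and 90.2 CPM in CTRL replicates 1 to 5, 176, 144, 129.9 and 93.1 CPM in T1, 180.0, 128, 167 and 281 CPM in T3, and 480.2, 215, 224 and 178 CPM in T5. T5 replicate 1 was far above the rest, while T5 replicate 4 at 178 CPM lay inside the CTRL range. The T3 mean was 189 ± 65.4 CPM (SD, n = 4), and 158 ± 27.0 without T3 replicate 4 (n = 3). The T5 mean was 274 ± 139 CPM (n = 4) and 206 ± 24.7 without T5 replicate 1 (n = 3), against 157 ± 43.4 in CTRL (SD, n = 5). The fitted change of T5 over CTRL was 0.81 ± 0.30 (log2, SE), with an unadjusted p of 0.0169 and an adjusted p of 0.601 in edgeR's test. Without T5 replicate 1 it was 0.39 ± 0.26, with an unadjusted p of 0.157.

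Fn1 encodes fibronectin, which links cells to the matrix through integrins. It lies at chr1:71585520-71653200 on the - strand. An exon of Apol7d overlaps it on the opposite strand, and as no source used here gives the strand setting, reads of the pair cannot be told apart. Fn1 had 5.93, 1.65, 0.168, 7.62 and 3.70 CPM in CTRL replicates 1 to 5, 7.55, 4.28, 11.9 and 22.6 CPM in T1, 2.31, 6.28, 13 and 145 CPM in T3, and 37.2, 19.2, 4.19 and 2.04 CPM in T5. The CTRL value of 0.168 CPM rests on 4 reads. T3 replicate 4 stood 3.89 times above the next library, and every DSS group overlapped CTRL. The highest library held 860.5 times the CPM of the lowest, and 221 times without T3 replicate 4.

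The T3 mean of Fn1 was 41.6 ± 68.9 CPM (n = 4) and 7.20 ± 5.41 without T3 replicate 4 (n = 3), against 3.81 ± 3.04 in CTRL (SD, n = 5). The fitted change of T3 over CTRL was 3.47 ± 1.20 (log2, SE), with an unadjusted p of 0.0116 and an adjusted p of 0.911 in edgeR's test. It was 0.94 ± 1.0 without T3 replicate 4, with an unadjusted p of 0.362. As a share of Dcn CPM in the same library, Fn1 came to 71.4% in T3 replicate 4 and to 1.5, 4.22 and 12.4% in T3 replicates 1 to 3. In CTRL libraries that share ran from 0.216 to 4.55%, so T3 replicates 3 and 4 were above every CTRL library on this measure and T3 replicates 1 and 2 were not.

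Comp encodes cartilage oligomeric matrix protein, a thrombospondin that binds collagens and is known from cartilage, tendon and activated fibroblasts. It lies at chr8:70373558-70382066 on the + strand. Comp had 0.226, 0.161, 0.378, 0.378 and 0.561 CPM in CTRL replicates 1 to 5, 0.408, 0.448, 0.583 and 1.37 CPM in T1, 0.289, 0.853, 2.01 and 11.0 CPM in T3, and 4.64, 1.02, 1.06 and 0.640 CPM in T5. All 4 T5 libraries were above all 5 CTRL libraries, while T1 and T3 overlapped CTRL. The CTRL values rest on 4 to 10 reads each, so a change of a few reads moves them. Comp was the only one of the 9 tested members whose T5 and CTRL values did not overlap, against 0.985% of all genes tested that were wholly higher in T5 and 1.57% that were wholly lower. For T1 the background was 2.9% higher and 3.86% lower than all CTRL libraries, and for T3 it was 0.783% and 0.92%, and no member was in these.

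The fitted change of Comp was 3.37 ± 0.86 for T3 over CTRL (log2, SE), with an unadjusted p of 0.00108 and an adjusted p of 0.911 in edgeR's test. Leaving out T3 replicate 4 gave 1.64 ± 0.70, with an unadjusted p of 0.0305. For T5 over CTRL it was 2.43 ± 0.85, with an unadjusted p of 0.0106 and an adjusted p of 0.598. Without T5 replicate 1 that value was 1.40 ± 0.84, with an unadjusted p of 0.114. Markers of cartilage and bone were near absent: their 9 genes summed to at most 8.65 CPM in any library, and 7 of them stayed under 1 CPM in every library.

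Dpt encodes dermatopontin, a small matrix protein that binds decorin and is abundant in fibroblasts of many organs. It lies at chr1:164796644-164824266 on the + strand. It had 41 reads in all 17 libraries together and none in 5 of them (T1 replicate 3, T3 replicates 1 and 2, T5 replicates 2 and 3). A count of 0, taken as at most 3 reads, allows a level of up to 0.116 to 0.289 CPM in those libraries, for counting error only. The highest value was 0.480 CPM in T5 replicate 1, from 9 reads, and CTRL libraries ran from 0.0561 to 0.282 CPM. Of the fibroblast genes on the list, Dpt alone stayed at 9 reads or fewer in every library. Comp was also low in CTRL libraries, at 4 to 10 reads.

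Pdgfra encodes the receptor for the platelet-derived growth factor A chain, a receptor tyrosine kinase of fibroblasts. It lies at chr5:75152292-75198215 on the + strand, and exons of Gm42802 and Gm42803 overlap it on the opposite strand and Mir7025 on the same strand. Pdgfra had 67.8, 52.1, 51.7, 54.1 and 57.1 CPM in CTRL replicates 1 to 5, 65.5, 70.9, 85.4 and 56.9 CPM in T1, 56.2, 69.5, 51.0 and 73.3 CPM in T3, and 50.1, 74.0, 73.2 and 58.4 CPM in T5. It was the steadiest member, with 1.70 times between the highest and the lowest library, and every DSS group overlapped CTRL. T5 replicate 1, highest for Dcn and Mgp, was the lowest of the 17 for Pdgfra. The T3 mean of Pdgfra was 62.5 ± 10.6 CPM (SD, n = 4), and 58.9 ± 9.57 without T3 replicate 4 (n = 3). In CTRL it was 56.5 ± 6.62 CPM (n = 5).

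The fitted change of Pdgfra for T1 over CTRL was 0.30 ± 0.15 (log2, SE), with an unadjusted p of 0.0569 and an adjusted p of 0.250 in edgeR's test. It was 0.31 ± 0.15 without T3 replicate 4. Only limma-voom with sample quality weights put it past the threshold, with an adjusted p of 0.0421, and adjusted p over all the alternatives ran to 0.999. The limma-voom fit called 4084 of all 16851 genes in this comparison, so passing it did not set Pdgfra apart. Summed markers of oligodendrocyte precursors ran from 20.6 to 261 CPM in T1 libraries, against 6.98 to 145 CPM in CTRL libraries. They were highest in T5 replicate 3, at 309 CPM, where Pdgfra was at 73.2 CPM. The part of these cells in the level of Pdgfra was not tested. Of the 6 genes for PDGF ligands and other receptors, none passed the test in any comparison. Pdgfrb, the receptor of mural cells and fibroblasts, had a fitted T1 change of 1.70 ± 0.53 and the ligand gene Pdgfa one of -0.31 ± 0.13, with adjusted p of 0.139 and 0.189 in edgeR's test.

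Dpep1 encodes a membrane dipeptidase that splits leukotriene D4 and cystinyl-glycine. It lies at chr8:123186242-123201812 on the + strand. Dpep1 had 27.9, 35.0, 19.6, 21.4 and 10.2 CPM in CTRL replicates 1 to 5, 17.3, 36.4, 45.9 and 26.1 CPM in T1, 23.4, 21.2, 18.8 and 9.31 CPM in T3, and 17.1, 32.6, 39.2 and 22.1 CPM in T5. T3 replicate 4, the highest for Fn1, Slc6a13, Comp and Fbln1, was the lowest for Dpep1, and every DSS group overlapped CTRL. Fitted changes over CTRL were 0.46 ± 0.36 for T1, -0.34 ± 0.37 for T3 and 0.28 ± 0.36 for T5 (log2, SE). The T3 value was -0.12 ± 0.37 without T3 replicate 4. Relative to Dcn, Dpep1 was at 4.60% in T3 replicate 4, against 9.23 to 32.4% in CTRL libraries.

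Slc6a13 encodes GAT2, a transporter of GABA, taurine and betaine found in the leptomeninges and in liver and kidney. It lies at chr6:121300227-121337733 on the + strand. Slc6a13 had 13.6, 1.82, 2.35, 11.0 and 13.9 CPM in CTRL replicates 1 to 5, 12.3, 7.25, 16.8 and 41.4 CPM in T1, 10.9, 11.2, 16.4 and 162 CPM in T3, and 91.0, 36.8, 12.3 and 6.75 CPM in T5. T3 replicate 4 and T5 replicate 1 were the highest, CTRL replicates 2 and 3 the lowest, and every DSS group overlapped CTRL. The T3 mean was 50.1 ± 74.6 CPM (n = 4) and 12.8 ± 3.08 without T3 replicate 4 (n = 3), against 8.53 ± 5.99 in CTRL (SD, n = 5).

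The fitted change of Slc6a13 for T3 over CTRL was 2.57 ± 1.0 (log2, SE), with an unadjusted p of 0.0216 and an adjusted p of 0.911 in edgeR's test, and 0.59 ± 0.86 without T3 replicate 4. For T5 over CTRL it was 2.12 ± 0.99, with an unadjusted p of 0.0498 and an adjusted p of 0.638, and 1.13 ± 1.0 without T5 replicate 1. The 4 highest libraries were the same for Slc6a13 and Fn1, in the same order: T3 replicate 4, T5 replicate 1, T1 replicate 4 and T5 replicate 2.

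**Figure D2:**
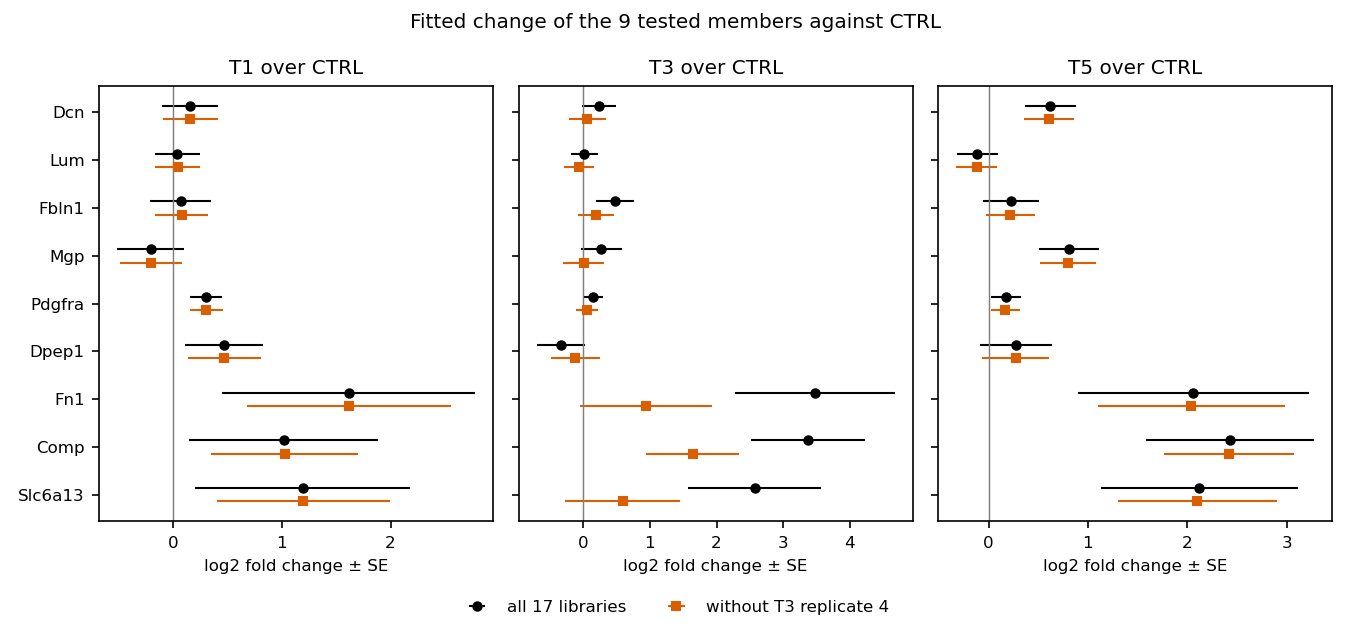
Fitted log2 fold change over CTRL (points, with bars of 1 SE) of the 9 tested members for T1, T3 and T5, from all 17 libraries (black circles) and without T3 replicate 4 (orange squares). In T3 the values of Fn1, Comp and Slc6a13 are 3.47, 3.37 and 2.57 with all libraries and 0.94, 1.64 and 0.59 without T3 replicate 4.

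Across the comparisons, 0 of the 9 tested members passed the adjusted threshold in edgeR's test in T1, T3 or T5 over CTRL, in T3 over T1 or in T5 over T3, where the background was 0% of 16851 genes in each. At an unadjusted p under 0.05, 0 members were past in T1 over CTRL, where 21.1% of all genes tested were. In T3 over CTRL 3 members were past it, all higher (Slc6a13, Fn1 and Comp), against 4.97% of all genes in either direction and 3.2% higher. In T5 over CTRL 4 were past it, all higher (Dcn, Slc6a13, Mgp and Comp), against 7.83% and 3.89% of all genes. In T3 over T1 1 member was past it, higher (Comp, 2.35 ± 0.89), against 8.2% of all genes and 3.57% higher, and in T5 over T3 there was none, against 10.5%. DESeq2 called 0 members in each comparison, and limma-voom called 1 in T1 over CTRL (Pdgfra) and 0 in the others. In T1 over CTRL limma-voom called 4084 of all 16851 genes tested, and DESeq2 called 826.

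Fewer members stood out in T3 without T3 replicate 4. In T3 over CTRL only Comp was then at an unadjusted p under 0.05, against 3.4% of all genes, and the members' median change was 0.06 in place of 0.27, against -0.03 and 0.02 over all genes. In T3 over T1 no member was then at an unadjusted p under 0.05, against 26.6% of all genes. Comp was at 0.62 ± 0.73 there, with an adjusted p of 0.603 in edgeR's test, and the members' median was -0.11 with 3 of 9 above 0, in place of 0.41 with 6 of 9. In T5 over T3 the median was 0.55 in place of -0.13, and Mgp was at an unadjusted p of 0.0286 (0.79 ± 0.33, adjusted p of 0.330 in edgeR's test), against 13.6% of all genes. In T5 over CTRL 5 members were then at an unadjusted p under 0.05, against 10.2% of all genes. Without T5 replicate 1 there was no such member in T5 over CTRL, against 7.92% of all genes. With all libraries, the members' median change over CTRL was 0.30 in T1 and 0.62 in T5, against 0.08 and 0.02 over all genes, and 8 of the 9 were above 0 in each of T1, T3 and T5. The T1 median was -0.28, with 4 of 9 above 0, when a term was fitted for the 4 libraries of title number 28 and above, which include 3 of the 4 T1 libraries. The T5 median was 0.41, with 7 of 9 above 0, without T5 replicate 1. The comparisons with CTRL share the same 5 control libraries, so these counts are not independent of each other.

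Other genes of fibroblasts were read alongside, from 20 markers chosen with earlier results of these data known. None passed the test with all libraries. In T3 over CTRL 18 of 20 were above 0, with a median of 0.77 and 3 at an unadjusted p under 0.05. These were the collagen VI genes Col6a2 (2.24 ± 0.80) and Col6a1 (1.67 ± 0.70) and the collagen I gene Col1a2 (0.80 ± 0.32). Without T3 replicate 4, 10 of 20 were above 0, the median was -0.01 and none was at an unadjusted p under 0.05: Col6a2 was at 0.62 ± 0.62, Col6a1 at 0.13 ± 0.51 and Col1a2 at 0.20 ± 0.21. Col6a2 had 66.4 CPM in T3 replicate 4 and 39.7 in T5 replicate 1, and no more than 13.9 CPM in any other library. In T5 over CTRL 19 of 20 were above 0, with a median of 0.66. In T1 over CTRL 17 of 20 were, with a median of 0.61, and Col1a2 was at 0.87 ± 0.32.

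Col1a2 had 123, 122, 128 and 175 CPM in T1 replicates 1 to 4, against 82.4, 84.4, 57.0, 94.1 and 57.3 CPM in CTRL replicates 1 to 5. The groups did not overlap, as for 2.9% of all genes tested. Its adjusted p was 0.160 in edgeR's test, so that the difference did not pass. Once T3 replicate 4 was left out, which belongs to neither group but shares in the estimate of spread, it passed at 0.88 ± 0.20 with an adjusted p of 0.0346. That fit called 4.25% of all genes in T1 over CTRL, and no member.

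The other genes of the members' matrix families were read in the same way. Of the 10 tested small leucine-rich proteoglycans other than Dcn and Lum, 8 were above 0 in T3 over CTRL, with a median of 0.39, or 0.09 without T3 replicate 4. Fmod, fibromodulin, a collagen-binding relative of lumican, was at 1.41 ± 0.55, and at 0.14 ± 0.33 without T3 replicate 4. Of the 13 listed, Kera, keratocan of the cornea, had 0 reads in every library. Of the 17 tested elastic fibre and fibulin genes 11 were above 0, with a median of 0.33, or -0.15 without T3 replicate 4. With all libraries 2 of these were at an unadjusted p under 0.05. Fbln5, which guides elastic fibre assembly, was at 0.67 ± 0.22, and at 0.41 ± 0.19 without T3 replicate 4. Ltbp1 was at 1.88 ± 0.74, and at 0.34 ± 0.60 without that library.

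Among 16 matricellular genes, the class to which Comp belongs, 12 were above 0 in T3 over CTRL with a median of 0.68, or 0.06 without T3 replicate 4. Ccn3, a secreted regulator of cell adhesion, was at 3.62 ± 1.22, and Spp1, osteopontin, at 1.94 ± 0.70. Leaving out T3 replicate 4 put them at 0.89 ± 0.98 and 0.78 ± 0.60, with 0 matricellular genes at an unadjusted p under 0.05 in place of 5. Among the 10 genes for fibronectin receptors and assembly, 9 were above 0 in T3 over CTRL, with a median of 0.21, or 0.11 without T3 replicate 4. The integrin subunits Itgav (0.48 ± 0.19), Itgb6 (0.40 ± 0.16) and Itgb1 (0.29 ± 0.12) were at an unadjusted p under 0.05, and the adjusted p of each was 0.911 in edgeR's test. Itgav was at 0.37 ± 0.20, Itgb6 at 0.42 ± 0.18 and Itgb1 at 0.19 ± 0.12 without T3 replicate 4, and of these only Itgb6 was then at an unadjusted p under 0.05. Of 12 tested genes of the TGF-beta pathway 9 were above 0, with a median of 0.15, or 0.09 without T3 replicate 4. The co-receptor gene Tgfbr3 was at 0.54 ± 0.20 and the mediator gene Smad4 at -0.60 ± 0.19, and at 0.44 ± 0.20 and -0.59 ± 0.21 without that library. No gene of these lists passed the adjusted threshold in any comparison with all libraries. Without T3 replicate 4, 2 matricellular genes passed in T1 over CTRL in edgeR's test: Ccn1, a secreted protein of cell adhesion, at 2.13 ± 0.42 (adjusted p of 0.0269) and Thbs1, thrombospondin 1, at 0.86 ± 0.23 (adjusted p of 0.04996). The same fit called 4.25% of all genes in T1 over CTRL.

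Markers of meningeal and arachnoid fibroblasts, the fibroblasts of the brain's coverings, were highest in the libraries in which Fn1, Slc6a13 and Comp were highest. Their 24 genes summed to 3683 CPM in T3 replicate 4 and 3032 CPM in T5 replicate 1, and to 1023 to 1800 CPM in the other 15 libraries. For 15 of the 24 genes (62.5%) the 2 highest libraries were this pair, as for 5 of the 9 tested members (55.6%: Slc6a13, Fbln1, Mgp, Fn1 and Comp) and 2.21% of all genes tested. The pair was picked from the members' own values, so the members' share was high by that choice and is no test. The marker lists were chosen with earlier results of these data known, so their shares are descriptions only. Slc22a6, an organic anion transporter of the leptomeninges, had 96.9 CPM in T3 replicate 4 and 42.7 CPM in T5 replicate 1, against 0 to 6.55 CPM in CTRL libraries. Slc47a1, a cation exporter, had 79.2 and 60.6 CPM in that pair, against 0.715 to 5.42 CPM in CTRL libraries.

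Smooth muscle genes were high in the same pair, while 2 pericyte genes, chosen after their values were seen, were not above the CTRL range. Pericyte genes as a set were not tested. The 12 mural cell markers summed to 573 CPM in T3 replicate 4 and 342 CPM in T5 replicate 1, and to 59.2 to 171 CPM in the other libraries. The contractile gene Acta2 made up 324 and 231 CPM of these sums, against 3.66 to 16.5 CPM in CTRL libraries. For 5 of the 12 genes (41.7%: Acta2, Tagln, Myh11, Cnn1 and Des) the 2 highest libraries were this pair. Rgs5, a pericyte gene, had 30.2 CPM in T3 replicate 4 and 27.2 CPM in T5 replicate 1, against 21.6 to 77.0 CPM in CTRL libraries. Abcc9, a channel subunit of pericytes, had 5.11 and 0.586 CPM in that pair, against 2.13 to 5.76 CPM in CTRL libraries. Markers of the plexus epithelium summed to 115600.0 CPM in T3 replicate 4 and 175218 CPM in T5 replicate 1, against 137579 to 206108 CPM in CTRL libraries. None of the 24 meningeal genes and none of the 12 mural genes was at 0 throughout. The part of meningeal and smooth muscle RNA in the levels of Fn1, Slc6a13, Comp and Fbln1 was not tested.

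Summed markers of endothelium, border macrophages and neurons were also high in T3 replicate 4, and none of these genes passed the test with all libraries. Ependymal markers went the other way, at 235 CPM there against 457 to 589 CPM in CTRL libraries. For 6 of these 9 genes (66.7%) T3 replicate 4 was the lowest library, as for 6.49% of all genes tested. Summed oligodendrocyte (1006 CPM) and astrocyte markers (716 CPM) there lay inside the CTRL ranges of 99.6 to 7176 and 172 to 752 CPM. In T3 over CTRL the median was 0.30 for endothelial and 0.53 for border macrophage markers. Without T3 replicate 4 these medians were -0.28 and -0.04. In T3 replicate 4 the 10 border macrophage markers summed to 120 CPM, against 23.4 to 47.5 CPM in CTRL libraries, and the 15 endothelial markers to 408 CPM, against 127 to 298 CPM. The endothelial sum was 256 CPM in T1 replicate 1, inside the CTRL range. It was 400 to 593 CPM in T1 replicates 2 to 4, which are of title number 28 and above. Of the 15 genes, 6 (Kdr, Tek, Flt1, Pecam1, Esam and Vwf) passed edgeR's test in T1 over CTRL without T3 replicate 4, against 0 with all libraries. That fit called 4.25% of all genes. It also called the meningeal marker Cyp1b1 (0.96 ± 0.26, adjusted p of 0.04996). The ependymal genes Rsph1 (-0.44 ± 0.11, adjusted p of 0.0423) and Cfap126 (-0.61 ± 0.16, adjusted p of 0.0457) were called lower. The 10 neuron markers summed to 458 CPM in T3 replicate 4 and to at most 49.2 CPM in the other T3 libraries. They summed to 109 to 401 CPM in T1 libraries and 70.8 to 753 CPM in T5 libraries, against 17.7 to 119 CPM in CTRL libraries. Their median change over CTRL was 1.96 in T1, 1.36 in T3 and 2.43 in T5, and -0.93 in T3 without T3 replicate 4. In T5 over CTRL all 10 were above 0 and 6 were at an unadjusted p under 0.05, and none passed the test. The part of endothelial, macrophage and neuronal RNA in the members' values was not tested.

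**Figure D3:**
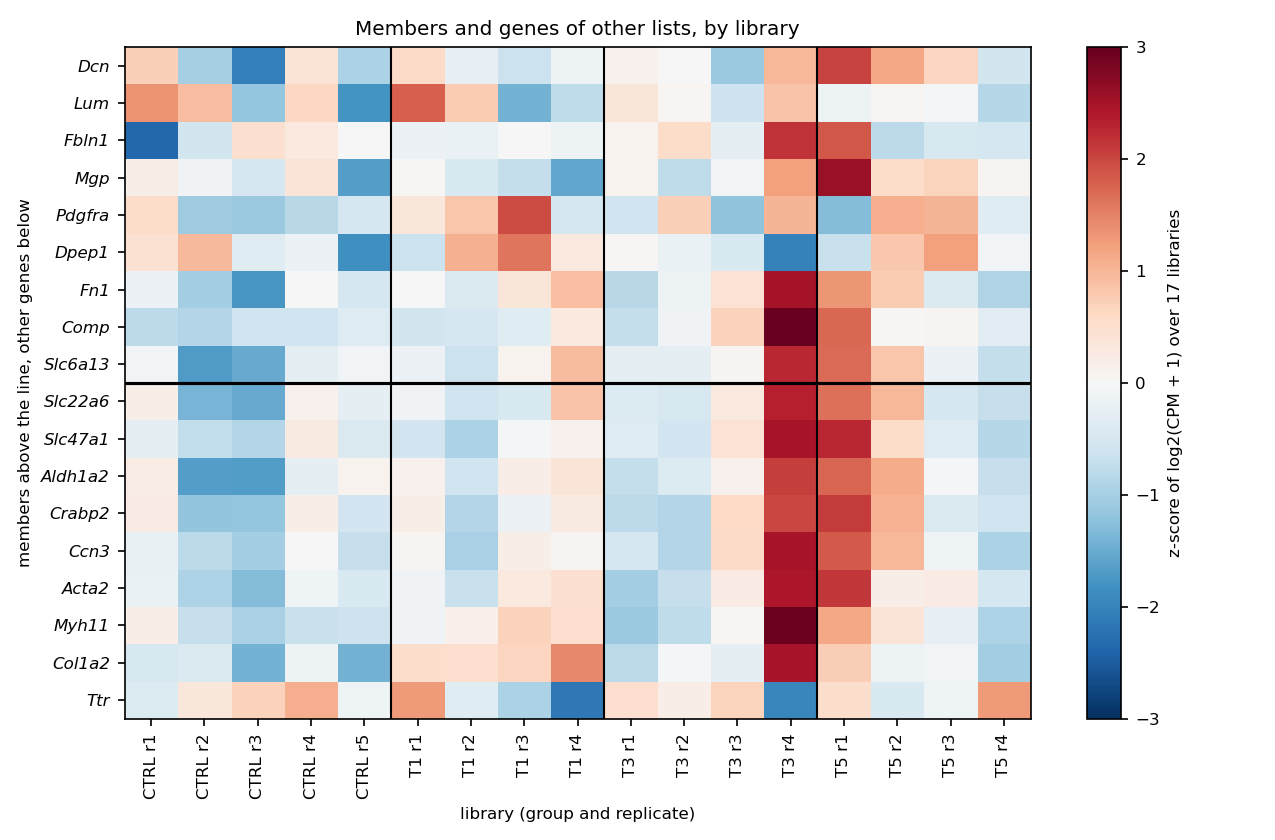
z-scores of log2(CPM + 1) over the 17 libraries (columns, by group and replicate) for the 9 tested members (above the line) and for meningeal, smooth muscle, collagen and epithelial genes (below it), with red above and blue below a gene's mean. T3 replicate 4 and T5 replicate 1 are red for Fn1, Comp, Slc6a13 and the meningeal and smooth muscle genes, while Dpep1 is blue in both.

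**Figure D4:**
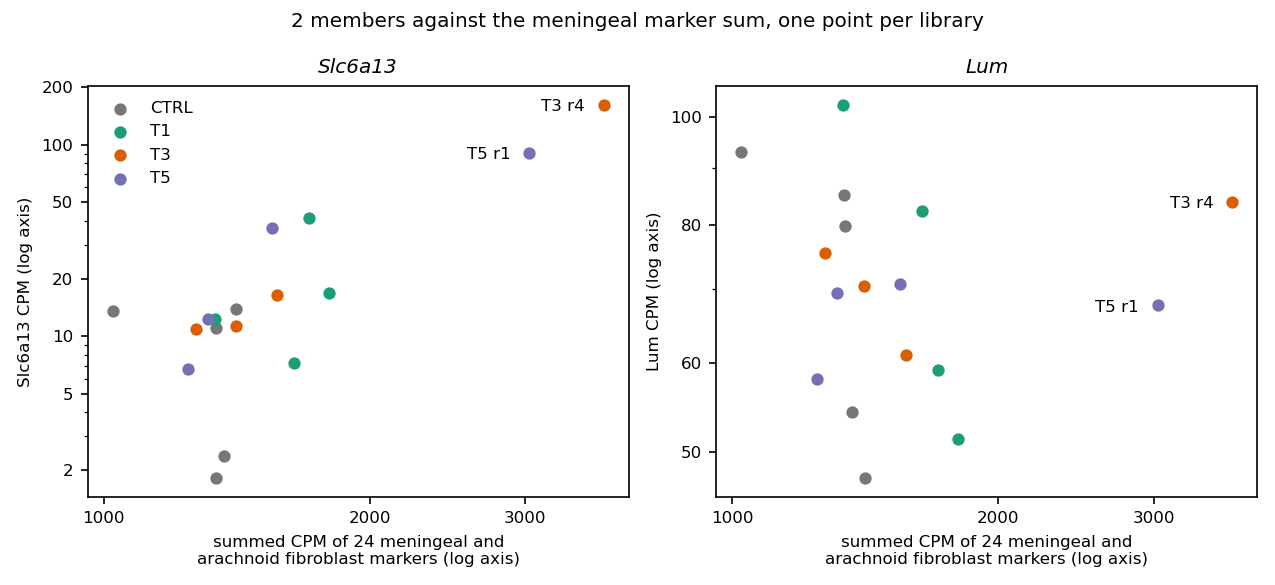
CPM of Slc6a13 (left) and Lum (right) against the summed CPM of the 24 meningeal and arachnoid fibroblast markers, both on log axes, with 1 point per library coloured by group. T3 replicate 4 and T5 replicate 1 lie farthest right, at 3683 and 3032 CPM, and are the 2 highest for Slc6a13 but not for Lum.

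The genes with the pattern most like that of the members were ranked by Pearson's r, over 17 libraries, between log2 CPM and the mean z-score of the 9 tested members, among 13046 genes of at least 1 CPM. The 10 highest were Mfap5 (r = 0.952), Efemp1 (0.922), Fhl2 (0.922), Itih2 (0.910), Slc7a2, Cited2, Fxyd5, Thbd, Foxc1 and Abcb1a (0.889). Mfap5 encodes a microfibril protein and Efemp1 a fibulin of the elastic fibre family, both matrix proteins of fibroblasts. Without T3 replicate 4, over 16 libraries, Mfap5 was again first (0.944), and 8 of the 10 genes were in both lists. Among the members themselves r with that mean was 0.868 for Dcn, 0.857 for Fn1, 0.830 for Slc6a13, 0.727 for Comp, 0.71 for Mgp, 0.450 for Fbln1, 0.426 for Pdgfra, 0.405 for Lum and -0.0859 for Dpep1. Each member is a part of the mean, and all points share library depth and tissue makeup, so these values describe likeness only.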

How the data were processed

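The deposited table holds raw read counts per Ensembl gene for 17 libraries of C57BL/6 choroid plexus, made per the labels from total RNA with the SMART-Seq v4 kit. Trimmomatic 0.39, STAR 2.6.1b, featureCounts 1.6.4 and build GRCm38 are named by the submitters' processing notes. Their settings, the strand option and the annotation release are not given there. How reads of overlapping genes were assigned is therefore open, and PCR copies count as reads. Symbols and coordinates come from GENCODE M21 on GRCm38.

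The members and lists were chosen with earlier results of these data known. The test was edgeR 4.0.16 (R 4.3.3) on the counts (TMM, filterByExpr by group, 1 mean per group over 17 libraries, robust quasi-likelihood F test, Benjamini-Hochberg adjustment over 16851 genes, threshold 0.05), after the script was tested on simulated data. Standard errors are the fitted log2 fold change divided by the root of F. CPM is scaled by TMM factors. Named genes include the 10 members, some of the 4 genes with the smallest unadjusted p in each other list and the 10 most alike. Col6a2, Slc22a6, Slc47a1, Acta2, Rgs5 and Abcc9 were given by library after their values were seen, and Kera and the list genes called without T3 replicate 4 were named for the same reason. Between libraries of the same group, chi-square per gene was 7.37 to 119 and r was 0.917 to 0.981, so none was counted as a copy. Alternatives were DESeq2 1.42.0, limma 3.58.1 (voom), other scaling, filters, covariates and libraries left out. PCR copies are not independent molecules, so counting limits cover counting error only.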

Additional observations from a re-analysis of the deposited data

Results flagged for a closer look

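Of 40 groups of libraries, 10 members in 4 groups each, 7 held a library set far from the others of its group. The rule marks about 1 group in 20 by chance only for independent, normally spread values. The members share the same libraries, so the 7 cannot be set against that rate. In T3, replicate 4 stood apart for Slc6a13 at 162 CPM (the others 10.9 to 16.4), for Fn1 at 145 CPM (2.31 to 13) and for Comp at 11.0 CPM (0.289 to 2.01). In T5, replicate 1 stood apart for Mgp at 480.2 CPM (178 to 224), for Fbln1 at 133 CPM (57.6 to 63.6) and for Comp at 4.64 CPM (0.640 to 1.06). In CTRL, replicate 2 stood apart for Dpt at 0.282 CPM (0.0561 to 0.0841), which rests on 7 reads against 1 or 2. Summed meningeal markers were 3683 and 3032 CPM in T3 replicate 4 and T5 replicate 1, and summed other fibroblast markers were 2327 and 2084 CPM. The part of either in these values was not tested.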

How the results depend on the processing

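No member was called by edgeR in any of the 5 comparisons under the scaling, filter, covariate and left-out-library alternatives tried. Limma-voom called 1 (Pdgfra in T1 over CTRL, where it called 4084 of 16851 genes). With T1 and CTRL alone in the fit, 8 members passed the filter and were tested. No paired analysis was possible because the replicate numbers are accession order and pair no libraries. Leaving out T3 replicate 4 and T5 replicate 1 together was chosen after seeing the data.

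Over all genes, where edgeR called 0 in each comparison, DESeq2 called 826 in T1 over CTRL, 2 in T3 over CTRL, 16 in T5 over CTRL, 24 in T3 over T1 and 84 in T5 over T3. Limma-voom called 4084 in T1 over CTRL and 4065 in T3 over T1, and edgeR without both of the named libraries called 522 in T1 over CTRL. With 1 library left out, edgeR called 0 to 2203 in T1 over CTRL (2203 without T1 replicate 1 and 717 without T3 replicate 4), 0 to 3 in T3 over T1 (3 without T1 replicate 2 and 3 without T3 replicate 4) and 0 to 1 in T5 over T3. The cause was not tested. Library totals alone put the median of all genes at 0.21 in T1 over CTRL and -0.12 in T3 over T1, in place of 0.08 and -0.02.

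Of the members' log2 fold changes, 415 kept their sign and side of the threshold under alternatives other than leaving out 1 library, 33 changed sign and 1 passed the threshold. With limma-voom, Lum was at -0.10 in T1 over CTRL and 0.13 in T3 over T1, Fn1 at -0.23 in T3 over T1, and Slc6a13, Fn1 and Comp at 0.62, 0.18 and 0.40 in T5 over T3. Without the 4 libraries of title number 28 and above (T1 replicates 2 to 4 and T3 replicate 4), Dpep1 was at -0.42 and Mgp at 0.15 in T1 over CTRL, where T1 is then 1 library assumed to vary like the other groups, and Lum at -0.055 in T3 over CTRL. In T3 over T1 Dcn was then at -0.36, Dpep1 at 0.30, Mgp at -0.13 and Fn1 at -0.030, and in T5 over T3 Slc6a13 was at 1.5, Fbln1 at 0.025, Fn1 at 1.09 and Comp at 0.77. With a term for those 4 libraries, Slc6a13, Fbln1, Fn1 and Comp were at -0.52, -0.28, -0.30 and -0.99 in T1 over CTRL, and Slc6a13, Fn1 and Comp at 1.04, 0.47 and 0.50 in T5 over T3. With T3 replicate 4 and T5 replicate 1 both left out, Lum was at -0.068 in T3 over CTRL, Fbln1 at -0.15 in T5 over CTRL, Dcn, Slc6a13 and Fn1 at -0.10, -0.61 and -0.68 in T3 over T1, and Slc6a13 and Fn1 at 0.54 and 0.23 in T5 over T3. Pdgfra was at -0.039 in T5 over T3 with library totals alone and at -0.10 with the brain marker covariate.

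With 1 library left out, 740 changes kept their sign and 25 did not. The ranges that crossed 0 were -0.16 to 0.18 for Lum and -0.081 to 0.17 for Fbln1 in T1 over CTRL, -0.11 to 0.12 for Lum in T3 over CTRL and -0.14 to 0.34 for Fbln1 in T5 over CTRL. In T3 over T1 they were -0.10 to 0.23 for Dcn, -0.18 to 0.18 for Lum, -0.61 to 2.03 for Slc6a13 and -0.68 to 2.38 for Fn1. In T5 over T3 they were -0.053 to 0.13 for Pdgfra, -1.44 to 1.51 for Slc6a13, -0.62 to 0.028 for Fbln1, -2.31 to 1.10 for Fn1 and -1.96 to 0.78 for Comp. Without T3 replicate 4 the last 4 were at 1.51, 0.028, 1.10 and 0.78. Comp rests on 3 to 266 reads a library and Dpt on 0 to 9, which limits what depth can show for both.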
